A study of Mus musculus with 6 samples.

Results

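The cytosolic ribosomal protein genes were taken from the authors' deposited table by name: rows naming 1 gene whose symbol starts with Rpl or Rps and a digit, or is Rplp0, Rplp1, Rplp2 or Rpsa, leaving out pseudogene names (with -ps) and the S6 kinases (Rps6k). The rule caught 87 of 37757 rows. Of these, 74 encode canonical proteins of the cytosolic ribosome, 31 of the small subunit and 43 of the large subunit. The other 13 are 6 paralogs, 5 copies of ribosomal protein genes and 2 genes that carry such a name without being a structural protein of the ribosome. The authors tested 84 of the 87, and the untested 3 (Rpl39l, Rps12l1 and Rpl10l) are at or near 0.

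RNA came from cultured kidney epithelial cells of C57/Bl6J mice 8 weeks old. Cells in both groups carried the label Bim-/- Bmf-/-, for the loss of a pair of genes that encode apoptosis-promoting BH3-only proteins. The authors' deposited table had Bcl2l11 (Bim) at 9.53 FPKM attached and 51.4 suspended and Bmf at 2.95 and 4.30, values for whole genes that do not show which exons were read, so the label was not checked by them. One group was kept attached (3 libraries) and the other was held in suspension for 4 h (3 libraries), with titles that name anoikis, a form of apoptosis set off by loss of anchorage. The table gives 1 FPKM (fragments scaled to transcript length and library size) for each gene and condition, the log2 of suspended over attached, and the authors' p and q from Cuffdiff. The labels do not say whether the libraries came from separate cultures or animals, so p and q may measure technical spread. No spread between libraries can be given, since the values are 1 per condition, and depth is unknown. Throughout, a gene is called higher or lower where the authors' q was below 0.05.

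Each cytosolic ribosome is built from a single copy of nearly every ribosomal protein, and the genes are among the most highly transcribed of a growing cell. Their messenger RNAs start with a stretch of pyrimidines at the cap, the terminal oligopyrimidine (TOP) motif, through which mTORC1 and the RNA-binding protein Larp1 control how much of the RNA is translated and how stable it is. Control of this class is therefore exerted to a large part on translation, which the RNA levels measured here do not show.

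Windows of 30 bases around the longest run of C and T near the listed start are shown for members that the results turn on. They come from RefSeq (build GRCm38.p6), 5′ to 3′ on the strand of the gene, and the capitals mark the run. The first 4 genes were called lower in suspension, Rps9 and Rps27 were not called, and Rps19bp1 is a non-ribosomal namesake that was called lower.
Rpl7a (chr2:26910789-26910818, plus strand): acaaTTCCCTCTTCTTTCTTTCTCCagcag
Rpl14 (chr9:120571501-120571530, plus strand): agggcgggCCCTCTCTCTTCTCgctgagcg
Rpl6 (chr5:121204521-121204550, plus strand): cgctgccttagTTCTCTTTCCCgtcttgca
Rpl27 (chr11:101442226-101442255, plus strand): cggaacgctctgTTCCTgtctgctgctcgt
Rps9 (chr7:3704025-3704054, plus strand): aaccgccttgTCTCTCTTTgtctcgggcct
Rps27 (chr3:90213631-90213660, minus strand): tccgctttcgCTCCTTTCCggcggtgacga
Rps19bp1 (chr15:80264291-80264320, minus strand): agggcggaagtagCTCgccgcgtgtgggcg

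The run was 21 bases long in Rpl7a, 14 in Rpl14 and 11 in Rpl6. It was 9 in both Rps9 and Rps27, 5 in Rpl27 and 3 in Rps19bp1. Counted from the listed start, its first base stood at -14 in Rpl7a, -8 in Rpl14 and 31 in Rpl6. A run therefore need not lie at the cap as a TOP motif does. Promoter entries were matched by symbol for 62 of the 87 members, 54 of them canonical. A run of at least 8 C or T on the strand of the gene, searched from 20 bases before to 50 bases after the listed start, stood in 41 of the 54 (75.9%). Over the 9711 promoters of genes that the authors tested the share was 22.4%, and over all 27025 promoters it was 25.4%. Runs of at least 10 stood in 35 canonical genes (64.8%), beside 10.5% and 11.9%. The first entry listed for a gene was used, so the listed start need not be the one used in these cells. For Rpl27 the searched stretch ended before the first base of its deposited row (chr11:101442298). The short run of Rpl27 therefore does not describe the start of that row, which was not searched. Runs were counted anywhere in the searched stretch, so the shares are not those of TOP motifs at the cap.

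Of motifs searched on both strands from 250 bases before to 50 bases after the start, CCGGAAG, the core bound by ETS factors such as Gabpa, stood in 23 of the 54 canonical promoters (42.6%), beside 17.5% of the promoters of tested genes and 9.12% of all promoters. CTCGCGAG stood in 6 (11.1%), beside 1.85% and 0.958%. AAGATGG, the core bound by Yy1, stood in 7 (13.0%), beside 7.25% and 6.48%, and the TATA sequence TATAAA stood in 5 (9.26%), beside 7.08% and 14.2%. CCGGAAG ends in the letters with which AAGATGG begins, so these matches can overlap. The ETS core is shown in capitals for the member with the highest level, Rps21, and for 2 small subunit genes called lower, Rps2 and Rpsa, where it lies on the opposite strand.
Rps21 (chr2:180257271-180257317, plus strand): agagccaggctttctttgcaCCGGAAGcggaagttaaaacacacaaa
Rps2 (chr17:24719916-24719962, plus strand): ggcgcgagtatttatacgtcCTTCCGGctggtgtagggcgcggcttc
Rpsa (chr9:120127558-120127604, plus strand): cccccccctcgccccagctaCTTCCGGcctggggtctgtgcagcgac

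In the authors' deposited table the 41 canonical genes with a run of at least 8 had a median log2 of -0.11 with 4 called lower, and the 13 with a shorter run had a median of -0.10 with 2 called lower. The 23 genes with CCGGAAG had a median of -0.13 and the 31 without it -0.10, with 3 called lower in each. No test of these differences was run.

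Canonical ribosomal protein transcripts differed by less than 1.25-fold in either direction between attached cells and cells held 4 h in suspension in 72 of 74 genes. Of the 74, all tested, 0 were called higher, 8 were called lower and 66 were not called, so 10.8% were called. In the same comparison 51.0% of all 14748 tested rows were called, 24.7% higher and 26.3% lower. Among the 1950 tested rows with a mean of at least 50 FPKM, a level that every canonical member passes, 59.2% were called, 19.2% higher and 40.0% lower. Cuffdiff's unadjusted p was below 0.05 for 12 of the 74, the 8 called lower and 4 more, and for 0 with a higher level in suspension. In bulk RNA, fewer cells of a type and less RNA per cell cannot be told apart, and FPKM show a gene's part of the measured RNA and not copies per cell.

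The median log2 fold change of the canonical genes per the authors' deposited table was -0.12, or a change of -7.86%, and the extremes were -0.40 (Rpl27) and 0.05 (Rps20). The interquartile range was 0.12, against 1.02 over the tested rows with a fold and 0.63 over those of at least 50 FPKM. The 72 genes within 1.25-fold either way are 97.3% of the 74, and the other 2 are Rpl27 and Rpl8. In 51 genes the suspended level was within 10% of the attached level. Over the tested rows with a fold, 34.4% were within 1.25-fold either way, and 43.6% of those of at least 50 FPKM were. Values lay below 0 in 67 canonical genes and above 0 in 7. The median log2 was -0.04 over all tested rows with a fold, -0.11 over rows that reached 1 FPKM in each condition and -0.19 over tested rows of at least 50 FPKM. Relative to the -0.11 the canonical median was -0.0098, with 33 genes above 0 and 40 below. The direction of an uncalled member can therefore depend on the scaling. Members called higher or lower kept their direction, but this was fixed in advance. The shift (-0.11) is smaller in size than the smallest called change, 0.24 (Rps2). Rescaled, the 8 canonical genes called lower had log2 values from -0.30 (Rpl27) to -0.13 (Rps2), and their calls were not recomputed.

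**Figure D1:**
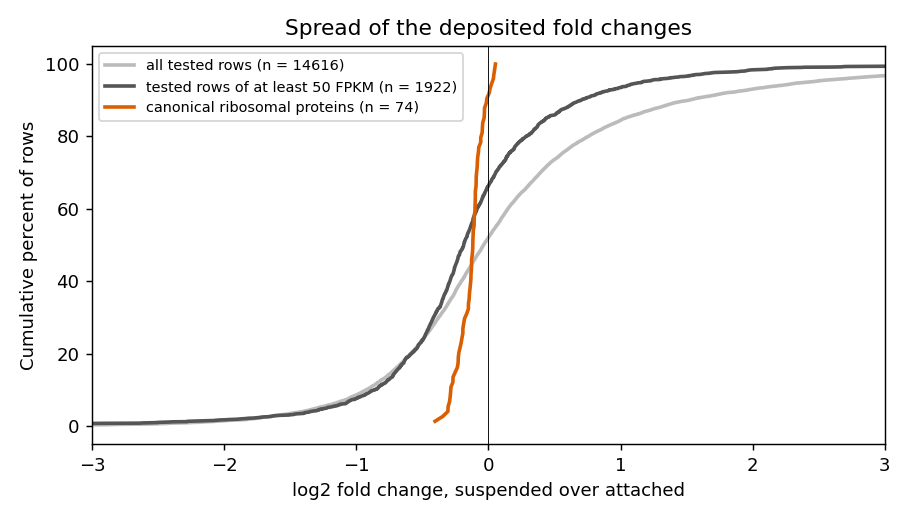
Cumulative percent of rows (vertical axis) at or below each log2 fold change of suspended over attached cells (horizontal axis, drawn from -3 to 3) per the authors' deposited table. The curve of the 74 canonical ribosomal protein genes climbs from -0.40 to 0.05, while the curves of all tested rows with a fold and of those with a mean of at least 50 FPKM spread over several log2 units.

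The standard error of log2 that the deposited p and log2 imply, by a normal approximation, had a median of 0.11 over the 74 canonical genes (quartiles 0.11 and 0.12). Its 95% interval reaches 0.22 to either side of a gene's log2. The smallest change called among canonical genes was 0.24 (Rps2) and the largest not called was 0.29 (Rpl35), so changes much below these sizes were not detectable for a single gene, and a gene not called is not shown to be unchanged.

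Levels differed far more between members than between conditions. Attached cells had from 78.2 FPKM (Rpl31) to 1057 FPKM (Rps21), with a median of 232, and suspended cells from 74.3 FPKM (Rpl31) to 1035 FPKM (Rps21), with a median of 217, per the authors' deposited table. The highest level was 13.5 times the lowest in attached and 13.9 times in suspended cells. The SD of the log2 level over genes, 0.90, was 9.12 times the SD of the log2 fold change, 0.10. Across the 74 genes, which are not independent and come from the same libraries, the log2 levels of both conditions had a Pearson r of 0.995 and a Spearman rho of 0.993. Of the 10 highest genes in attached cells, 9 were among the 10 highest in suspended cells.

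**Figure D2:**
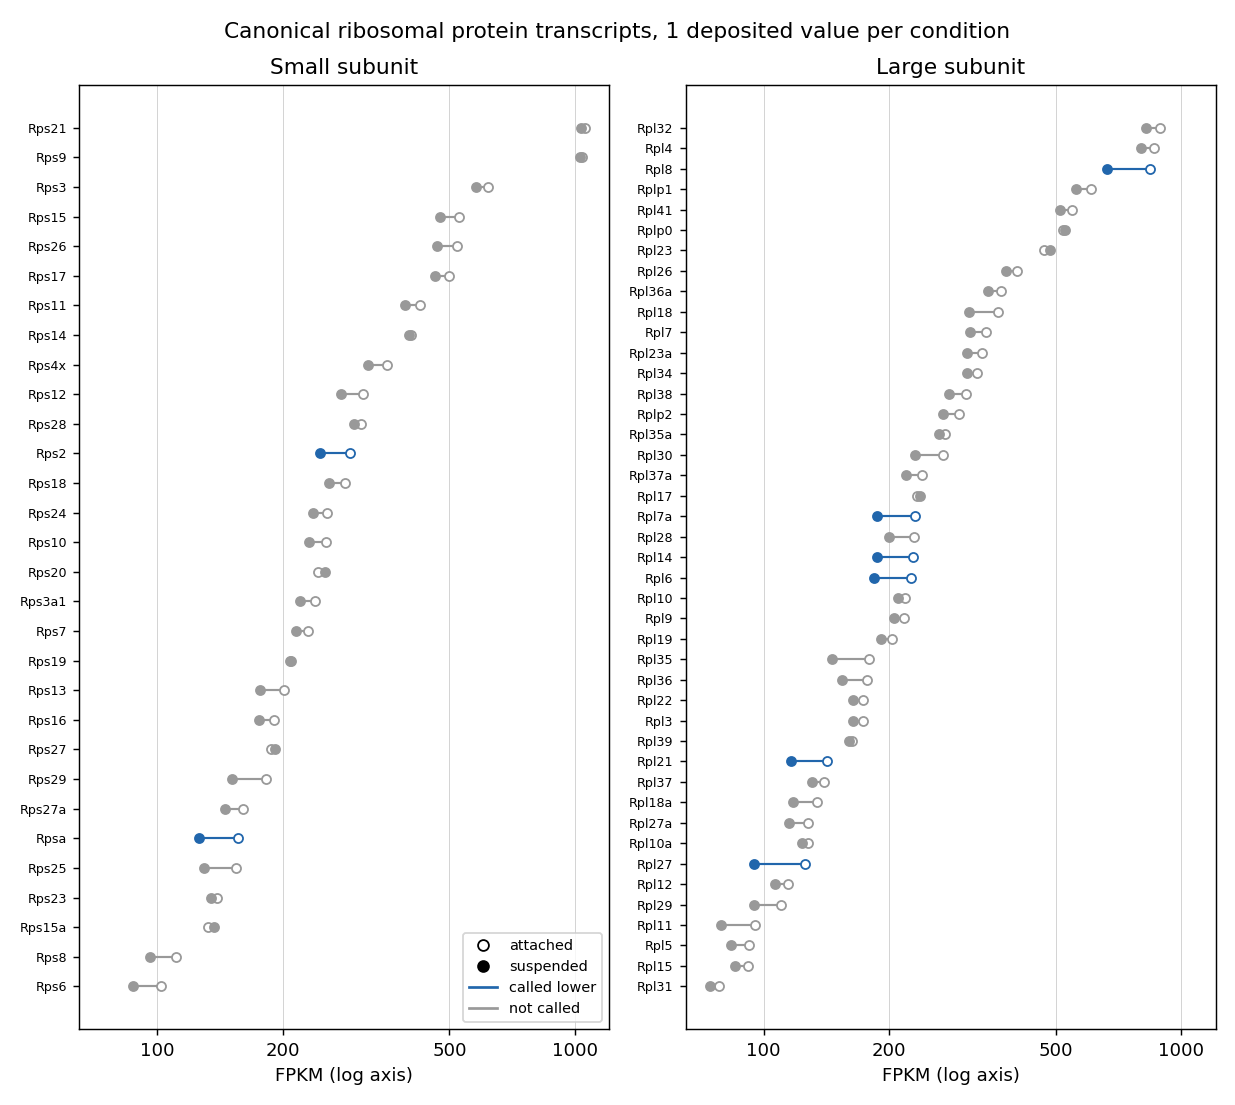
Level of each canonical ribosomal protein transcript in FPKM (horizontal log axis), attached as open and suspended as filled circles, 1 value per condition with no error available, small subunit on the left and large subunit on the right, ordered by level, with 73 of the 74 drawn. Blue pairs are the 2 small and 6 large subunit genes called lower; the pairs span 74.3 to 1057 FPKM and the circles of most pairs nearly touch.

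In the small subunit, 0 of 31 genes were called higher and 2 lower, with a median log2 of -0.12 and a range of -0.31 to 0.05. The share called was 6.45%, beside 51.0% of all tested rows and 59.2% of those of at least 50 FPKM. The authors' deposited table put Rpsa, which is both a ribosomal protein and the laminin-binding receptor of the cell surface, at 156 FPKM attached and 126 FPKM suspended, so it fell by 19.2% (log2 -0.31, q = 0.00673). Its row lies at chr9:120127766-120132369 (mm10). Rps2, which sits beside the entry of the messenger RNA channel, fell from 288 to 245 FPKM per the authors' deposited table (log2 -0.24, q = 0.0490), close to the threshold. Its row lies at chr17:24718116-24721929. Just outside the threshold the table had Rps25 at 154 and 130 FPKM (log2 -0.25, q = 0.0592) and Rps29 at 182 and 151 FPKM (log2 -0.27, q = 0.0720).

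Rps6, the substrate of the S6 kinases downstream of mTORC1, had the lowest small subunit level, 102 FPKM attached and 87.3 FPKM suspended per the authors' deposited table (log2 -0.23, q = 0.0822). Rps3, which also takes part in DNA repair, stood at 619 and 578 FPKM per the authors' deposited table (q = 0.494). Rps19 and Rps14, known from human anaemias caused by a shortage of either protein, were listed there at 208 and 209 FPKM (q = 0.978) and at 405 and 400 FPKM (q = 0.915). None of these 4 was called. At the top of the scale, Rps21 had 1057 and 1035 FPKM and Rps9 had 1038 and 1030 FPKM per the authors' deposited table. Their log2 values, -0.03 and -0.01, are far inside the error of a single gene. The highest log2 of a canonical small subunit gene was 0.05 for Rps20, at 243 and 252 FPKM (q = 0.808) per the authors' deposited table, followed by Rps15a at 133 and 136 FPKM (q = 0.848) and Rps27 at 187 and 191 FPKM (q = 0.859).

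In the large subunit, 0 of 43 genes were called higher and 6 lower, with a median log2 of -0.12 and a range of -0.40 to 0.05. Rpl27 had the largest fall of a canonical gene, by 24.4%, from 126 to 94.9 FPKM per the authors' deposited table (log2 -0.40, q = 0.00254; chr11:101442298-101445529). Rpl8, a protein close to the peptidyl transferase centre and one of the 3 highest of its subunit, fell by 21.3%, from 843 to 663 FPKM per the authors' deposited table (log2 -0.35, q = 0.00241; chr15:76904071-76906318). It is the called gene with by far the highest level, so the falls were not limited to weakly transcribed members.

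The other 4 falls in the large subunit were alike in size. The authors' deposited table listed Rpl7a at 231 and 187 FPKM (log2 -0.31, q = 0.00956; chr2:26910764-26913318) and Rpl6 at 225 and 184 FPKM (log2 -0.29, q = 0.0126; chr5:121204481-121209241). It listed Rpl14 at 228 and 187 FPKM (log2 -0.29, q = 0.0170; chr9:120571517-120574653). Rpl21 had a lower level, 142 and 117 FPKM per the authors' deposited table (log2 -0.28, q = 0.0300; chr5:146832890-146837032). Rpl35 moved as far per the authors' deposited table, from 179 to 146 FPKM (log2 -0.29), without being called (q = 0.102).

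Rpl5 and Rpl11, which with the 5S ribosomal RNA bind Mdm2 and so stabilise p53 when ribosome assembly is disturbed, were not called. The authors' deposited table had Rpl5 at 92.2 and 83.4 FPKM (log2 -0.14, q = 0.518) and Rpl11 at 95.2 and 79.0 FPKM (log2 -0.27, q = 0.0570). Rpl3, at the peptidyl transferase centre, stood at 173 and 163 FPKM (q = 0.550). The stalk proteins, which recruit the elongation factors, were not called either: the authors' deposited table gave 522 and 526 FPKM for Rplp0 (q = 0.939), 608 and 560 FPKM for Rplp1 (q = 0.356) and 293 and 268 FPKM for Rplp2 (q = 0.391). The highest large subunit levels were those of Rpl32, 891 and 823 FPKM (q = 0.376), and Rpl4, 860 and 801 FPKM (q = 0.448). The 3 canonical large subunit genes above 0 were Rpl23, at 468 and 484 FPKM (log2 0.05, q = 0.736), Rpl17 and Rplp0.

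Ribosomal proteins made as fusions with ubiquitin or a ubiquitin-like protein stayed outside the calls. Rps27a, which also yields ubiquitin, had 160 and 145 FPKM per the authors' deposited table (q = 0.326). Fau, whose product is split into a ubiquitin-like protein and a small subunit protein, had 269 and 234 FPKM (q = 0.129) and is not caught by the naming rule. A row shared by Rpl13a, known from the interferon-induced silencing of translation, and Flt3l had 735 and 669 FPKM (q = 0.410), and a row naming Rpl24 under both spellings had 232 and 216 FPKM (q = 0.639) per the authors' deposited table. Gnb2l1, the older symbol of the scaffold protein Rack1 on the small subunit, was the 1 gene of these that was called, lower at 738 and 617 FPKM (log2 -0.26, q = 0.0456).

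The lowest and highest log2 values stood among the 13 members that are not canonical proteins. Of the 10 tested, 2 were called higher, 2 lower and 6 were not called, with a median log2 of -0.21 and a range of -0.80 to 2.10. Over all 84 tested members the count was thus 2 higher, 10 lower and 72 not called (14.3% called), with a median log2 of -0.13. Of the 10, 40.0% were called. Beside that, 51.0% of all tested rows were called, 24.7% higher and 26.3% lower. The median over the tested rows with a fold was -0.04.

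Rps4y2, a processed copy of Rps4x whose current symbol is Rps4l, rose 2.76-fold from 14.9 to 41.0 FPKM per the authors' deposited table (log2 1.46, q = 0.000185). Its parent Rps4x, on the X chromosome, had 354 and 320 FPKM (q = 0.248), so the copy went from 4.20% to 12.8% of the level of the parent. The annotated gene spans 943 bases (chr6:148354656-148355598), but its row covers 211960 bases (chr6:148232430-148444389) that also hold Tmtc1, whose own row stood at 0.0765 and 0.228 FPKM and was not tested. The value for Rps4y2 is uncertain for that reason and for its likeness to Rps4x, and the part of either was not tested. The other call in this direction, Rpl3l, the striated muscle paralog of Rpl3, was at 0.0812 and 0.348 FPKM per the authors' deposited table (log2 2.10, q = 0.0200), which is 0.0470% and 0.213% of the level of Rpl3. Such levels are near 0, and with a pseudocount of 1 FPKM the log2 of Rpl3l was 0.32.

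Rps19bp1, which binds Rps19 and the deacetylase Sirt1 and is no structural ribosomal protein, fell by 38.8%, from 26.4 to 16.2 FPKM per the authors' deposited table (log2 -0.71, q = 0.000185; chr15:80260614-80264306), while Rps19 itself had a log2 of 0.0045. Rpl7l1, a factor of large subunit assembly, stood at 37.6 and 21.6 FPKM (log2 -0.80) per the authors' deposited table but was not called (q = 0.0782). Its row covers 388966 bases with 17 other protein-coding genes, so it is no clean measure of Rpl7l1.

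Of the 6 paralogs, Rpl36al, Rps27l and Rpl22l1 were expressed at levels comparable to their partners. Rpl36al, the paralog of Rpl36a, fell by 18.8%, from 190 to 154 FPKM per the authors' deposited table (log2 -0.30, q = 0.0207), with a row that also holds the annotated model Gm49383, while Rpl36a had 370 and 345 FPKM (log2 -0.10, q = 0.489). The paralog thus went from 51.4% to 44.7% of its partner, a difference between the pair that was not tested. Rps27l, a target of p53, was the higher of its pair: the authors' deposited table gave 435 and 383 FPKM for Rps27l (q = 0.145) and 187 and 191 FPKM for Rps27, so the paralog stood at 233% and 200.1% of its partner. Rpl22l1, whose RNA is repressed by the Rpl22 protein, had 128 and 116 FPKM (q = 0.391), or 73.7% and 71.2% of the 173 and 163 FPKM of Rpl22. The start regions of the paralogs also hold runs of C and T, marked in capitals.
Rps27l (chr9:66946064-66946093, plus strand): ctcctctccaCTCCTCCCCgccgcctctat
Rpl22l1 (chr3:28805499-28805528, plus strand): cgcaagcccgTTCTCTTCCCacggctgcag
Rpl36al (chr12:69184020-69184049, minus strand): gctctgttcgTCCCTTTCCTgttcggcgcg
Rpl36a (chrX:134585673-134585702, plus strand): ggctctagCCTCTCTCTTTCCgagctgcta

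Within the searched stretch the longest runs of Rps27l and Rps27 are both 9 bases long. That of Rpl36al, 10 bases, is shorter than the 13 bases of Rpl36a. The window of Rps27l also begins with a run of C and T that crosses the search limit and is left unmarked. The testis-type paralogs were silent or nearly so: Rpl10l was listed at 0 in both conditions and Rpl39l at 0.0350 FPKM attached and at 0 suspended per the authors' deposited table. The copies Rps3a2, at 12.3 and 11.1 FPKM (q = 0.495), and Rps3a3, at 8.02 and 6.57 FPKM (q = 0.500), stood at 5.16% and 3.36% of Rps3a1 in attached cells. The row of Rps3a3 covers 1503514 bases over the gene Pde4d, so its value is uncertain. Rps12l2 had 15.0 and 12.8 FPKM (q = 0.411) beside 311 and 275 FPKM for Rps12 (q = 0.173). Rps12l1 was at 0.0663 FPKM attached and listed at 0 suspended.

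**Figure D3:**
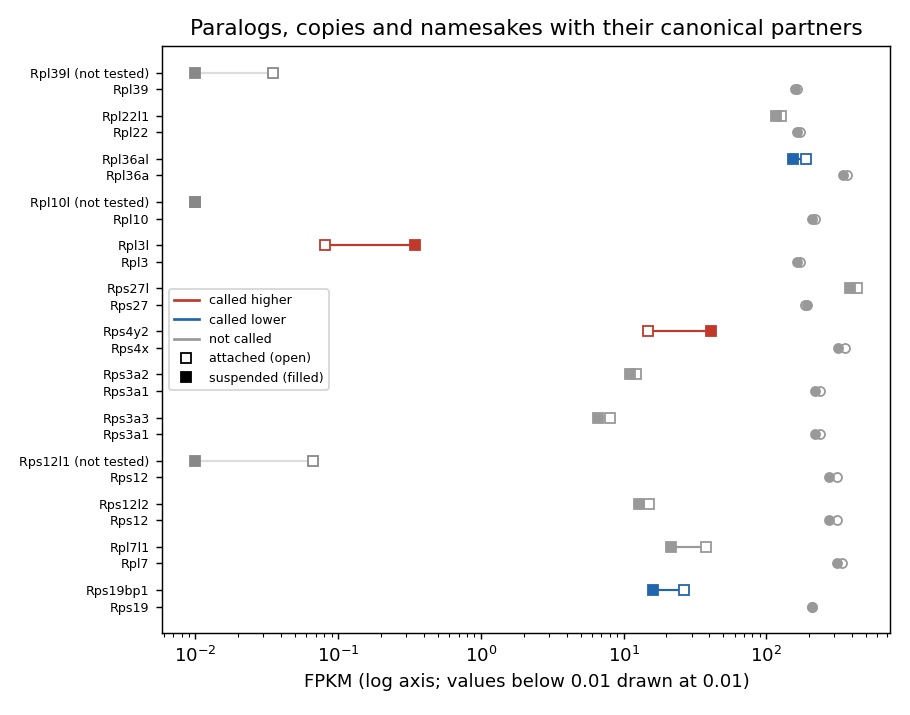
Level in FPKM (horizontal log axis, values below 0.01 drawn at 0.01) of the 13 paralogs, copies and namesakes (squares) and of their canonical partners (circles), attached as open and suspended as filled symbols, 1 value per condition. Rps4y2 and Rpl3l (red) are called higher and Rpl36al and Rps19bp1 (blue) lower, and Rps27l is the 1 square that lies to the right of its partner.

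Reads of ribosomal protein genes can also map to their many pseudogenes, and nothing in the sources used here states how such reads were assigned. The authors' deposited table has 220 pseudogene rows of this family (names with -ps), of which 72 are listed at 0 in both conditions and 26 have a mean of at least 10 FPKM. Their sum, 1092 FPKM attached and 1046 FPKM suspended, was 4.61% and 4.79% of the sum of the members. The highest were Rpl38-ps2, at 102 and 99.6 FPKM, and Rpl39-ps, at 82.2 and 82.3 FPKM. Of the 62 pseudogene rows tested, Cuffdiff's q called 0, beside 51.0% of all tested rows, and 0 had an unadjusted p below 0.05. Their median log2 was -0.09, with a range of -0.74 to 3.16 and an SD of 0.55. Pseudogene rows not called are therefore not shown to be unchanged. The 51 canonical genes with a pseudogene row of their name had a median log2 of -0.13 and 6 called lower (11.8%). The 23 without had -0.10 and 2 called lower (8.70%). Beside these shares, 26.3% of all tested rows were called lower, and the difference between the groups was not tested.

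Introns of ribosomal protein genes often carry small nucleolar RNAs, which guide the modification of ribosomal RNA. By the GENCODE M21 annotation (GRCm38), 28 canonical genes hold 1 or more on their own strand, and per the authors' deposited table these had a median log2 of -0.12 with 5 called lower (Rpl7a, Rpl6, Rpl21, Rpsa and Rps2). The 46 without one had a median of -0.11 with 3 called lower. The shares called lower were 17.9% and 6.52%, beside 26.3% of all tested rows and 40.0% of those of at least 50 FPKM. The difference between hosts and the others was not tested. Canonical genes lie on 19 chromosomes, with the largest number, 13, on chromosome 7. In 14 canonical genes the row also covers at least 1000 bases of another protein-coding gene, among them Rpl35, Rps25, Rpl5 and Rps27a, but none of the 8 called lower. The 60 others had the same 8 calls and a median log2 of -0.12.

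Summed over the members, the authors' deposited table held 23695 FPKM attached and 21854 FPKM suspended. That is 2.77% and 2.64% of the sum over all rows naming 1 gene. That sum was 856190 FPKM attached and 829088 FPKM suspended, and rows taken as mitochondrial or short RNAs weigh heavily in it. Rows on the mitochondrial chromosome are a small part of it, 31198 FPKM attached and 68368 FPKM suspended. Without the 5750 rows taken as mitochondrial or short RNAs the members made up 5.39% attached and 5.31% suspended. These rows were found partly by name, and the patterns also match protein-coding genes whose symbols start with Rn or Sca. Both shares are therefore approximate. Canonical small subunit genes summed to 10544 and 9891 FPKM, and canonical large subunit genes to 12283 and 11200 FPKM.

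Other groups of protein synthesis genes were counted in the same way, beside the 51.0% of all tested rows that were called. Of 35 tested ribosome biogenesis genes, which make and modify ribosomal RNA and assemble the subunits, 1 was called higher, 28 lower and 6 were not called (82.9% called), with a median log2 of -0.99. Among them the authors' deposited table had Polr1b, a subunit of RNA polymerase I, at 17.1 and 4.74 FPKM (log2 -1.85), the ribosomal RNA pseudouridine synthase Dkc1 at 28.9 and 9.46 FPKM (log2 -1.61) and the ribosomal RNA methyltransferase Fbl at 24.3 and 8.98 FPKM (log2 -1.44), each with q = 0.000185. The nucleolar protein Ncl fell from 81.5 to 69.2 FPKM (log2 -0.24, q = 0.0469), and Npm1, at 215 and 199 FPKM, was not called (q = 0.395). Ubtf, an activator of RNA polymerase I, was the gene called higher, from 30.3 to 51.9 FPKM per the authors' deposited table. The genes named from these lists were chosen after their values were seen.

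Mitochondrial ribosomal proteins, which build the separate ribosome of the organelle, were called lower in 36 of 70 tested genes and higher in 1, with 33 not called and a median log2 of -0.38. The share called, 52.9%, is close to the 51.0% of all tested rows. The directions were not alike, since all tested rows were called lower in 26.3% and higher in 24.7%. In the authors' deposited table Mrps27 had 12.9 and 5.35 FPKM (log2 -1.27, q = 0.000185), and the gene called higher, Mrps18c, had 37.1 and 48.5 FPKM (q = 0.0162). Of 51 tested rows named as initiation factors or their regulators, 7 were called higher, 20 lower and 24 not, with a median of -0.24, and the share called was again 52.9%. Of 10 genes listed with elongation and termination, 1 was called higher, 5 lower and 4 not (60.0% called), with a median of -0.29. The extremes were -1.31 for Eef1e1, listed by its name, and 2.38 for the kinase Eef2k, so neither is a core factor. Eef1a1 and Eef2, the core elongation factors, had 2221 and 2138 FPKM (q = 0.771) and 863 and 837 FPKM (q = 0.801), and Eef2k, the kinase that inhibits Eef2, rose from 1.14 to 5.92 FPKM per the authors' deposited table. Eif5a, counted with both groups, fell from 494 to 311 FPKM (log2 -0.67, q = 0.000185).

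**Figure D4:**
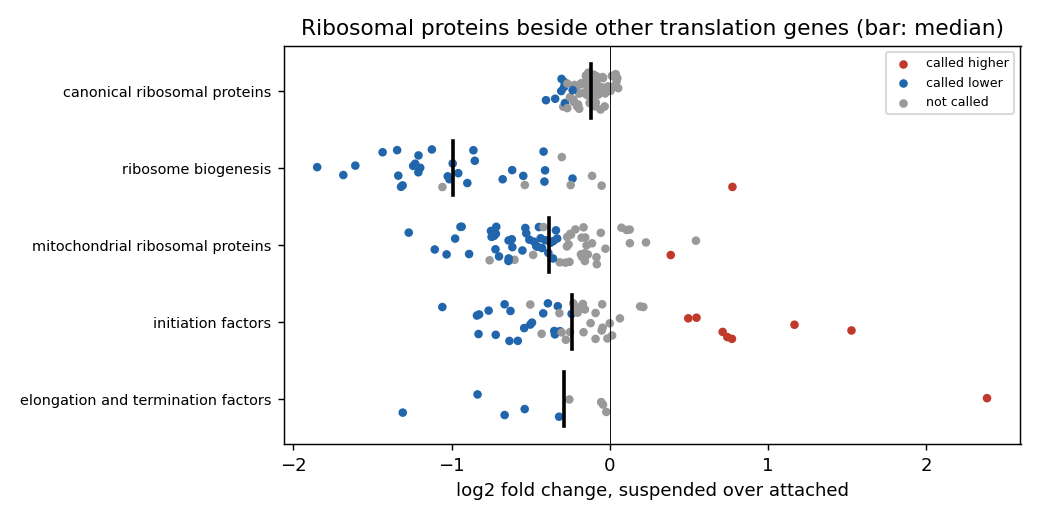
Deposited log2 fold change of suspended over attached cells (horizontal axis) for each tested gene of 5 groups, scattered vertically for legibility, with the median as a black bar. The canonical ribosomal proteins (median -0.12, 8 called lower in blue) form a narrow band near 0, and the ribosome biogenesis genes (median -0.99, 28 called lower) lie farthest to the left.

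TOP messenger RNAs are also known outside the ribosomal protein genes. Of 18 such genes tested, 1 was called higher, 6 lower and 11 not (38.9% called, beside 51.0% of all tested rows), with a median log2 of -0.09. In the authors' deposited table Hnrnpa1 rose from 138 to 176 FPKM (q = 0.00213), while Tpt1 had 536 and 614 FPKM (q = 0.105). Their log2 values, 0.34 and 0.20, were the highest of the list. The lowest was that of Eef1g, which fell from 367 to 253 FPKM (log2 -0.54, q = 0.000185). This list includes Gnb2l1 and Fau and shares Eef1a1 and Eef2 with the elongation factors.

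Of 15 regulators of ribosomal protein synthesis, 5 were called higher, 5 lower and 5 not called (66.7% called). Beside that, 51.0% of all tested rows were called, 24.7% higher and 26.3% lower, so calls in both directions are not particular to this list. The 5 called lower were the transcription factor Myc (55.4 to 31.6 FPKM), Larp1, which binds TOP messenger RNAs (35.8 to 24.4 FPKM), the kinase Mtor (7.01 to 4.46 FPKM, q = 0.0238), its partner in mTORC1 Rptor (15.5 to 10.3 FPKM) and the mTORC1 inhibitor Tsc2 (18.1 to 12.7 FPKM, q = 0.00463) per the authors' deposited table. The 5 called higher there were the translation repressors Eif4ebp1 (124 to 203 FPKM) and Eif4ebp2 (41.3 to 69.0 FPKM), the transcription factors Sp1 (21.2 to 53.3 FPKM) and Gabpa (19.0 to 27.9 FPKM, q = 0.00241), and Tsc1, the partner of Tsc2 (5.82 to 14.9 FPKM). The q was 0.000185 where none is given. These are RNA levels, and the activity of mTORC1 was not measured.

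Epithelial markers were high in both conditions (7 of 7 found, 21.4 to 773 FPKM attached and 60.5 to 752 suspended). Kidney tubule markers were present too (5 of 5), with a sum of 791 FPKM attached and 473 suspended. Endothelial markers reached at most 0.282 FPKM and fibroblast markers at most 1.81 FPKM, with Lum listed at 0, and of the podocyte genes Nphs1 was at or near 0 while Synpo went from 2.53 to 12.6 FPKM and Podxl from 1.60 to 7.87 FPKM. Leukocyte markers (4 of 5 found) summed to 24.9 FPKM attached and 47.4 suspended, with Cd3e near 0 and Ptprc at 1.42 and 12.4 FPKM. The part of these in the values of the ribosomal proteins was not tested.

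Stricter thresholds left few calls over the 84 tested members. With q below 0.01, 5 were called lower and 1 higher, beside 41.3% of all tested rows called. With a change of at least 1.5-fold, 1 was called lower (Rps19bp1) and 2 higher, beside 35.2%. With at least 2-fold, 0 were called lower and 2 higher, beside 19.5%, and the 2 are Rps4y2 and Rpl3l.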

How the data were processed

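Messenger RNA of cultured kidney epithelial cells was sequenced in 6 libraries, 3 attached and 3 suspended. TopHat, Bowtie, Cufflinks 1.0.3 and Cuffdiff with build mm10 are named, per the submitters' processing notes; not given in the sources used here: settings, annotation, strand and the treatment of reads with several matches. Each condition has 1 deposited FPKM per gene, which the authors pooled over its 3 libraries. Beside it stand the authors' log2 of suspended over attached, their test score and their p-value and q-value, per the file headers, so calls rest on Cuffdiff's adjusted p. The conditions were identified by the last letter of the sample names that every row gives, BBCA and BBCS. A was read as attached and S as suspended, which no label spells out. Deposited p-values go no lower than 5e-05. The table has 0 columns of single libraries, so no model was fitted, depth is unknown and no SD or confidence interval over libraries could be computed.

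Members were selected by name, and calls, medians, sums and implied standard errors (the absolute log2 over the normal quantile of p) were computed from the table, in scripts tested on simulated data. Rows were placed on GENCODE M21 (GRCm38): 86 of 87 members were found and all 86 overlapped the deposited position. Starts were written 1-based. Runs and motifs were counted in RefSeq promoters (GRCm38.p6). The members and the lists of other translation genes were chosen with earlier results of these data known, and the division into canonical proteins, paralogs, copies and namesakes was made after values were seen. Named were the 6 most positive and 6 most negative log2 values, the 5 highest and 5 lowest levels, members with known roles, paralogs with their partners, and all called members; Rpl35, Rps25 and Rps29 were named for lying next to the threshold and Rpl17 as 1 of 3 above 0. Some genes that the rule names are not reported here. Alternatives were the threshold, a fold minimum, a recomputed adjustment, a low-value filter, rescaling, a pseudocount, the set of members and the rows summed. Software was matplotlib 3.10.9, pandas 2.3.3, SciPy 1.17.1 and NumPy 2.4.6 under Python 3.11.15.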

Additional observations from a re-analysis of the deposited data

How the results depend on the processing

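No paired analysis was possible because the deposited table holds 1 value per condition and no values per library; for the same reason no test on libraries was run and no replicate was left out. Over all 84 tested members, the 2 called higher became 1 with q below 0.01, 1 with at least 1 FPKM in both conditions, 1 without rows holding another coding gene (an alternative chosen after seeing the data) and 0 with canonical proteins alone. The 10 called lower became 5 with q below 0.01, 1 with at least 1.5-fold and 0 with at least 2-fold. Among all names starting with Rps, 1 was called higher (0 with canonical proteins alone) and 3 lower (1 with at least 1.5-fold, 0 with at least 2-fold). Among all names starting with Rpl, 1 was called higher (0 with q below 0.01, with at least 1 FPKM or with canonical proteins alone) and 7 lower (3 with q below 0.01, 0 with at least 1.5-fold or 2-fold). These falls follow from the stricter rules or fewer members. Adjusting the deposited p anew by Benjamini-Hochberg left the counts at 2 and 10. The median log2 of the members, -0.13, was -0.017 when rescaled to the median of rows of at least 1 FPKM, and 27 uncalled members, but 0 called ones, then changed sign. The shift is smaller than every called change, so no called member could change sign. A pseudocount of 1 moved no canonical log2 by more than 0.0037, but took Rpl3l from 2.10 to 0.32. The members' percent of the summed FPKM was 2.77 attached and 2.64 suspended. It was 5.39 and 5.31 without the rows taken as mitochondrial or short RNAs, which can include protein-coding genes matched by name. With an implied standard error of about 0.11, single genes that changed by much less than 0.2 on the log2 scale could not be told from no change.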
